A study of Mus musculus with 4 samples.

Results

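Mesenchymal cells of injured tibial muscle were compared between 7 and 3 days post injury (dpi) in a mouse model of heterotopic ossification (HO), the growth of cartilage and bone inside soft tissue. A cell was counted as mesenchymal when at most 10% of its unique molecular identifiers (UMIs, each standing for 1 captured transcript) came from mitochondrial genes, at least 0.5% came from Col1a1, Col1a2, Col3a1 and Dcn together, and it held 0 UMIs of Ptprc, Cdh5 and Pax7, the markers of leukocytes, endothelium and muscle satellite cells. By this choice 6945 of 15160 barcodes at 3 dpi (45.8%) and 17996 of 23752 at 7 dpi (75.8%) were mesenchymal, 24941 of 38912 in both libraries, out of 62665 barcodes in the 4 libraries of the series. Each library was a pool of 3 tibial muscles from Nse-Bmp4 mice, aged 6 to 8 weeks and of C57BL/6 strain, taken Uninjured or at 1, 3 and 7 dpi after cardiotoxin, a snake venom protein that kills muscle fibers. All groups carry the same transgene, which expresses mouse Bmp4 from the rat neuron-specific enolase promoter, so the comparison holds no animals without it. Time point and library are the same split here, with 1 pooled library a side, so time and library cannot be told apart and no test between them was possible.

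Mesenchymal progenitors of muscle are interstitial fibroblast-like cells that lie between the fibers, make the connective tissue and signal to immune and muscle cells after injury. Under bone morphogenetic protein (BMP) signaling such cells can enter endochondral ossification, in which a cartilage template is laid down by Sox9-dependent chondrocytes, enlarges, mineralizes and is replaced by bone. Chondrocytes of the template make type II, IX and XI collagens and aggrecan, enlarged (hypertrophic) chondrocytes make type X collagen and Indian hedgehog, and osteoblasts depend on Runx2 and Sp7.

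All barcodes together held 116346301 UMIs at 3 dpi and 129007669 at 7 dpi. The mesenchymal cells held 67090142 and 106676913 of them, with a median of 5515 and 3280.5 UMIs per cell. The 4 selection genes had a median share of 2.67% of a cell's UMIs at 3 dpi and 3.66% at 7 dpi, against the threshold of 0.5%. Close to that threshold, 45 and 77 cells at 3 and 7 dpi held 0.5 to 0.6%, and 41 and 78 cells with 0.4 to 0.5% were left out. Mitochondrial shares of 9 to 10% were found in 65 and 203 cells, and 57 and 123 cells with 10 to 11% were left out. Since these genes chose the cells, their levels are only a description. Col1a1 stood at 4310.2 CPM at 3 dpi and 12803 CPM at 7 dpi, where CPM is the gene's UMIs per 1000000 UMIs of the mesenchymal cells. Pairs of levels below are in this order, 3 dpi before 7 dpi. Col1a2 was at 6104 and 10839 CPM, Col3a1 at 8967 and 9801 CPM and Dcn at 7673 and 2446 CPM. Of mesenchymal markers that the choice of cells did not use, Pdgfra stood at 305 and 85.6 CPM and Pdgfrb at 84.2 and 80.6 CPM, against 5.76 and 2.74 CPM and 4.88 and 9.45 CPM in immune reference cells of the same libraries. These reference cells, 3471 at 3 dpi and 1178 at 7 dpi, had at least 2 UMIs of Ptprc and under 0.5% of the 4 selection genes. The libraries shared 27 cell barcodes among their mesenchymal cells.

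Across all genes outside the selection, 13979 had at least 100 UMIs over both libraries, and of these 1383 (9.89%) were at least 2-fold higher and 978 (7.00%) at least 2-fold lower at 7 dpi. These 2-fold limits define a gene called higher or lower in what follows. So 58.58% of the called genes were higher, a split that turned to 45.56% when each cell was thinned to 1000 UMIs. The median log2 ratio of 7 dpi over 3 dpi was -0.10, 65.8% of the genes lay within 1.5-fold, 211 were at least 10-fold higher and 36 at least 10-fold lower. Each count of list members below is to be set beside the shares of 9.89% higher and 7.00% lower over all genes. Intervals given with a ratio are exact 95% intervals and cover counting error only, not the spread between animals, cells or libraries. Among the 7002 genes with at least 1000 UMIs in each library, the upper limit lay at most 1.09 times above the ratio. Giving each cell the same weight, in place of each UMI, moved 199 of 848 genes of the lists or the naming rule by over 1.5-fold. Of the called genes named below, this weighting left Angptl4, Ccl12, Cd44, Chad, Ctsk, Cxcl1, Cxcl2, Dmp1, Fbn1, Gbp3, Hspa5, Ifitm3, Igtp, Mgp, Myod1, Plin1, Rspo2, Rspo3 and Smpd3 under 2-fold, and Bmp8a turned direction. A level summed over cells does not separate more cells with a transcript from more transcript per cell, nor, in these libraries, fewer cells of a type from less RNA per cell.

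**Figure D1:**
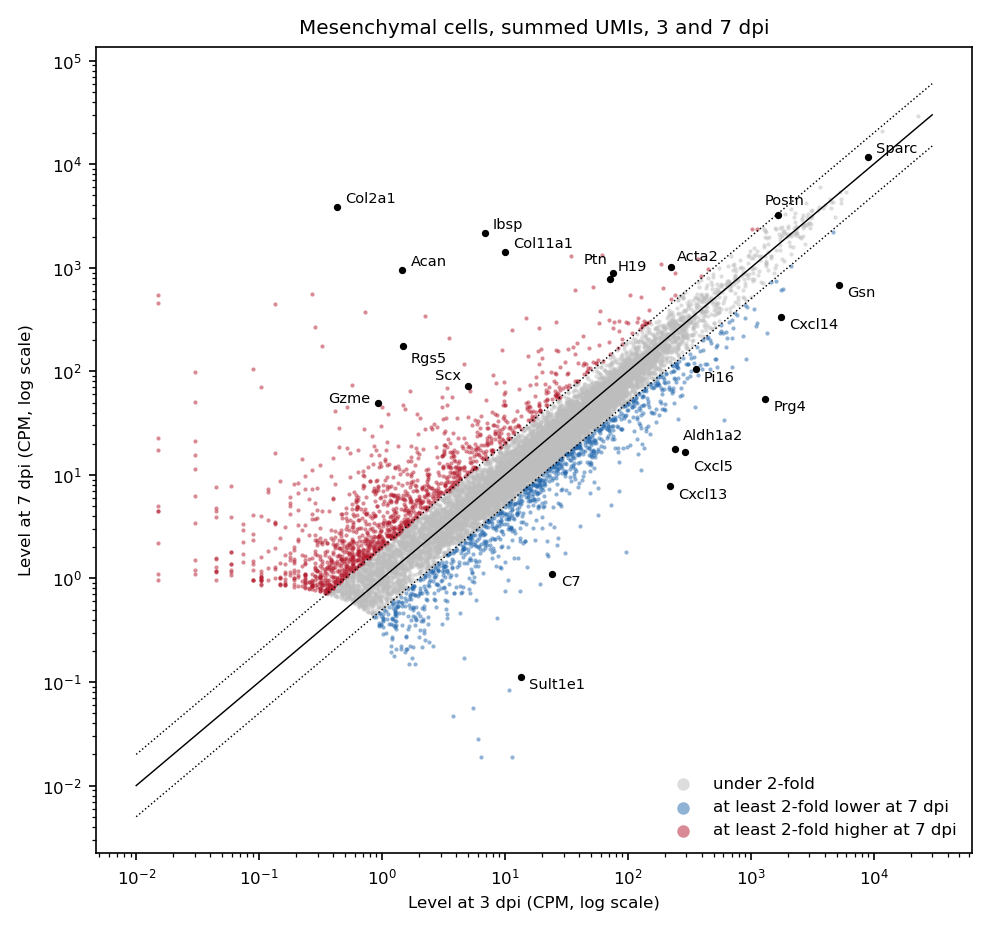
Level of each gene in mesenchymal cells at 3 dpi (horizontal, CPM, log scale) and 7 dpi (vertical, CPM, log scale), for genes with at least 100 UMIs over both libraries and at least 1 in each, with a solid line for equal levels and dotted lines for 2-fold. Col2a1, Acan and Ibsp lie far above the line, and Gsn, Prg4, Cxcl13 and Sult1e1 below it.

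Cartilage matrix genes had the highest median ratio of the lists compared. Col2a1 encodes the main collagen of cartilage (GRCm38, chromosome 15, 97975602 to 98004695, minus strand). It had 29 UMIs at 3 dpi and 410520 at 7 dpi, or 0.432 CPM at 3 dpi and 3848 CPM at 7 dpi, which made it 8903-fold higher (95% interval 6199 to 13294). Of the 24 genes of a cartilage matrix list, 22 were at least 2-fold higher and 1 was lower, with a median log2 ratio of 8.13. Acan, the core protein of the large proteoglycan aggrecan, went from 1.46 to 943 CPM and was 645-fold higher (95% interval 529.6 to 795). Other fibrillar and fibril-bound collagens of cartilage were higher too. Col11a1 stood at 10.0 and 1414 CPM (141-fold higher), Col9a2 at 0.73 and 375 CPM (514-fold) and Col9a3 at 0.268 and 556 CPM (2072-fold). Comp, a pentameric protein that links collagen fibrils in cartilage and tendon, was already present at 3 dpi and went from 62.2 to 1316 CPM. Cnmd, the anti-angiogenic chondromodulin, reached 271 CPM from 0.283 CPM, and the matrilin Matn3 177 CPM from 0.328 CPM. The gene of the list that was lower was Prg4, the joint lubricant lubricin, with 1318 and 54.2 CPM.

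Several cartilage genes were close to absent at 3 dpi. Col10a1, the collagen of hypertrophic cartilage, had 0 UMIs at 3 dpi and 23179 at 7 dpi, which is at least 4859-fold higher when 0 is set at a floor of 3 UMIs. The small membrane proteoglycan gene Snorc and the collagen gene Col9a1 had 1 UMI each at 3 dpi, too few for a precise ratio, and 58156 and 49170 at 7 dpi. Hapln1, the link protein that ties aggrecan to hyaluronan, had 9 UMIs at 3 dpi and 47349 at 7 dpi. Ucma, Mia and Scrg1, secreted products of chondrocytes, and Panx3, a channel of hypertrophic chondrocytes and osteoblasts, had 6, 7, 2 and 2 UMIs at 3 dpi against 104, 71, 50.1 and 98 CPM at 7 dpi.

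These transcripts were concentrated in a portion of the 7 dpi cells. Cells with Col2a1 at 0.1% or more of their UMIs, called cartilage cells here for short, numbered 2 at 3 dpi and 5546 at 7 dpi, 30.8% of the mesenchymal cells and 25.4% of their UMIs. The split is a range and not a sharp class, since 1097 cells at 7 dpi held 0.05 to 0.1% and 890 held 0.1 to 0.2%. Among other fixed cartilage markers, the cartilage cells held 77.5% of the 7 dpi UMIs of Acan, 97.3% of Hapln1, 98.2% of Matn1 and 91.9% of Col9a1. Their level of Acan was 2873 CPM, of Col11a1 4606 CPM and of Comp 4438 CPM, while the other 7 dpi mesenchymal cells held 284, 325 and 250.4 CPM. Since the cells were split on Col2a1 in these data, their levels describe the split and test nothing.

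Leaving the cartilage cells out kept most of the comparison. Of 13606 genes with enough UMIs, 1147 (8.43%) were then at least 2-fold higher at 7 dpi and 853 (6.27%) lower. There were 1047 genes higher and 802 lower both with and without these cells, and 336 genes were higher only with them. The 1047 include genes such as Col2a1 and Col10a1, whose levels outside the cartilage cells did not exceed those of immune reference cells, as given below. Of the called genes named here, Angptl4, Bglap, Ccl3, Ccl12, Cd44, Chst11, Col4a2, Cxcl1, Cxcl12, Dmp1, Fbn1, Fgf18, Ifitm3, Mgp, Ndrg1, P3h2, Plin1, Slc26a2, Spry1 and Xylt1 were under 2-fold without the cartilage cells, and Bmp8a, Chad, Cytl1 and Smpd3 turned direction. Cartilage matrix genes remained among the largest ratios, with 18 of 21 higher, against 8.43% over all genes, and a median log2 ratio of 5.16. The sum of the list did not show this, since Prg4 made up 1318 of its 1475 CPM at 3 dpi. The sum was 11556 CPM at 7 dpi with the cartilage cells and 1551 CPM without them. Free RNA in the droplets sets a floor for such low levels. The immune reference cells of the 7 dpi library held 110.2 CPM of Col2a1, where the other mesenchymal cells held 101 CPM, so nothing is read from Col2a1 in them. For Acan the reference cells held 23.4 CPM against 284, and for Col11a1 37.8 against 325. Cells of this library with at least 2 UMIs of Ptprc and no limit on the selection genes held 384 CPM of Acan and 530 CPM of Col11a1. Those cells also held 4850 CPM of Col1a1, against 457 CPM in the reference cells. Free RNA and RNA of mesenchymal cells thus cannot be told apart in them. The margin over the immune cells depends on that limit, and no level outside the cartilage cells is read from these genes. Col10a1 stood at 10.9 CPM in the reference cells and 7.47 CPM in the other mesenchymal cells, so it was not detectable there above this floor.

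**Figure D2:**
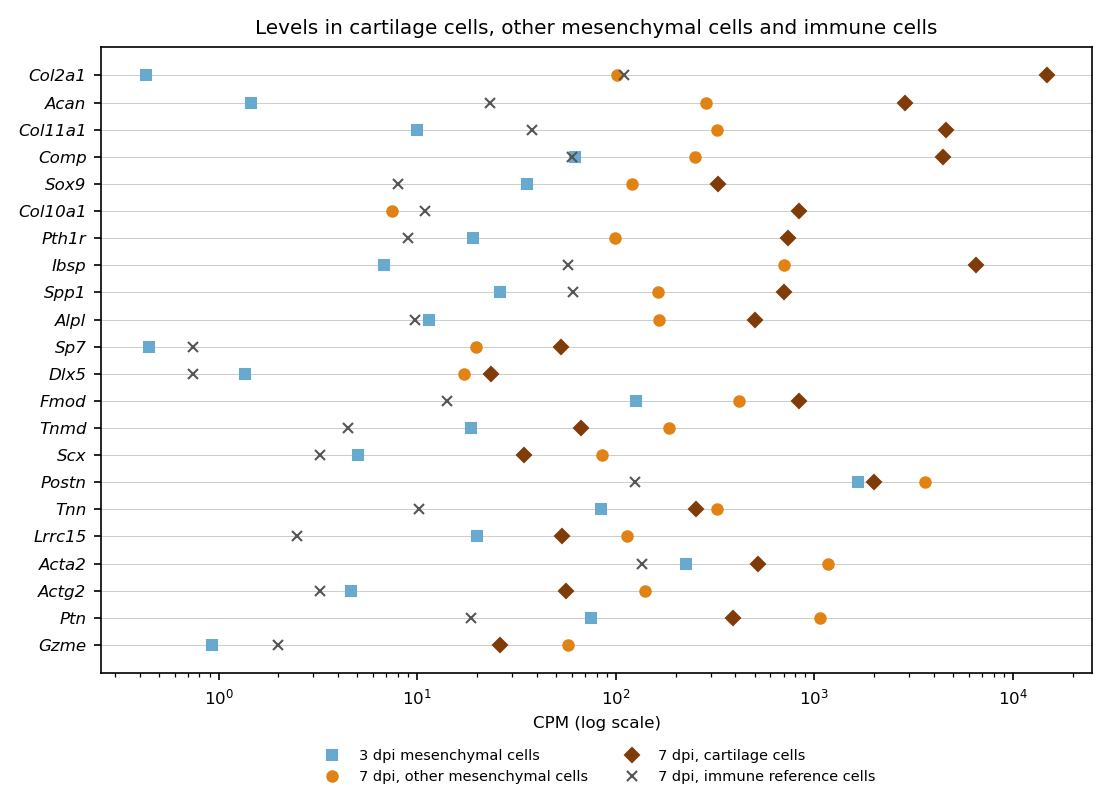
Level (CPM, log scale) of matrix, bone, tendon, contractile and secreted genes in 3 dpi mesenchymal cells, 7 dpi cartilage cells, other 7 dpi mesenchymal cells and 7 dpi immune reference cells, with no point for Col10a1 at 3 dpi, where it had 0 UMIs. Cartilage genes are highest in cartilage cells, and Tnmd, Scx, Postn, Acta2 and Ptn in the other mesenchymal cells.

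Transcription factors of cartilage had smaller ratios than the matrix genes. Of 15 with enough UMIs, 6 were higher and 0 lower. Sox9, the master regulator of chondrocytes, stood at 35.8 and 173 CPM, 4.83-fold higher (95% interval 4.63 to 5.04), and at 120.0 CPM without cartilage cells against 7.96 CPM in the reference cells. That margin may depend on the limit on the selection genes, as it did for Acan. No level outside the cartilage cells is therefore read from Sox9. Its partner Sox6 went from 0.715 to 27.8 CPM, while its other partner Sox5 stood at 15.9 and 21.1 CPM and was not called. Wwp2, whose gene hosts a cartilage microRNA, was at 18.8 and 119 CPM, and Trps1, a repressor in growth plate cartilage, at 72.3 and 87 CPM. Nkx3-2, Barx1 and Pax1, early factors of embryonic cartilage, had too few UMIs to be compared, with 0.0187, 0.0281 and 0.253 CPM at 7 dpi.

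Genes of hypertrophy were higher as a group, 11 of 13, with a median log2 ratio of 3.78 and of 2.60 without cartilage cells. The second value was not corrected for free RNA, so nothing is read from it about the other mesenchymal cells. Ihh, the hedgehog ligand of prehypertrophic chondrocytes, had 1 UMI at 3 dpi and 2442 at 7 dpi, 97.6% of them in cartilage cells. Pth1r, the receptor that slows hypertrophy in answer to parathyroid hormone-related protein, stood at 19.1 and 262 CPM. Fgfr3, a receptor that limits chondrocyte growth, reached 29.5 CPM from 0.984 CPM. The collagenase Mmp13 was at 2.67 and 31.1 CPM. Vegfa, which draws vessels into cartilage, stood at 54 and 50.9 CPM and was not called.

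Bone genes were higher at 7 dpi too, 13 of 20 and none lower, with a median log2 ratio of 2.47. Without cartilage cells 9 of 16 were higher and 1, Phex, was lower, with a median log2 ratio of 1.34. The shares over all genes without these cells were 8.43% higher and 6.27% lower. The part of free RNA in these calls without cartilage cells was not tested. The list shares Alpl, Ibsp and Spp1 with hypertrophic cartilage, and neither list is specific to osteoblasts. Ibsp, a bone sialoprotein that nucleates mineral (chromosome 5, 104299171 to 104311469, plus strand), stood at 6.84 and 2175 CPM, 318-fold higher (95% interval 290.1 to 349). Outside the cartilage cells it stood at 704 CPM, against 57.5 CPM in the reference cells. Cells with at least 2 UMIs of Ptprc and no limit on the selection genes held 613 CPM, so this margin depends on that limit. The ratios of Ibsp and Alpl were smaller with each cell given equal weight, at log2 values of 7.04 against 8.31 and 3.36 against 4.46. Alpl, the phosphatase needed for mineral, went from 11.4 to 251 CPM and Spp1, the phosphoprotein osteopontin, from 26.2 to 300.5 CPM, with 166 and 162 CPM outside the cartilage cells. These 2 levels outside the cartilage cells are given without a floor from free RNA, so nothing is read from them. The osteoblast factor Sp7 was at 0.447 and 28.3 CPM (63.4-fold higher) and Dlx5 at 1.36 and 18.9 CPM (13.9-fold). Runx2, which acts upstream of Sp7, stood at 39.5 and 74.7 CPM and was under 2-fold by UMIs. Its log2 ratio was 1.61 with each cell given equal weight, against 0.92 by UMIs. Late products of bone were low. Bglap, which encodes osteocalcin, was at 2.13 CPM at 7 dpi, the osteocyte gene Dmp1 at 1.57 CPM and Mepe at 0.262 CPM. Sparc, an abundant collagen-binding protein of bone and wound matrix, was at 9002 and 11826 CPM.

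Tendon genes showed another distribution over the 7 dpi cells. Scx, the transcription factor of tendon progenitors, stood at 5.05 and 72.4 CPM, 14.3-fold higher (95% interval 12.8 to 16), and its target Tnmd at 18.7 and 156 CPM, 8.33-fold higher (95% interval 7.87 to 8.83). Both were higher outside the cartilage cells, with 85.4 against 34.4 CPM for Scx and 186 against 66.5 CPM for Tnmd. Fmod, a small proteoglycan of tendon and cartilage, went the other way, with 839 CPM in cartilage cells and 419.6 CPM in the others. Fibin, a secreted protein of the limb, was at 28.1 and 111 CPM. Of the 12 genes of this list 4 were higher and 1, Htra4, was lower (4.2 and 1.35 CPM), and Thbs4, a thrombospondin of tendon and injured muscle, stood at 786 and 485 CPM without being called. Over all genes 9.89% were higher and 7.00% lower.

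Matrix of the wound itself differed between the time points in both directions, with 10 of 31 matricellular and elastic fiber genes higher and 6 lower. Over all genes 9.89% were higher and 7.00% lower. Postn, a matricellular protein of periosteum and wounds, stood at 1654 and 3203 CPM, or 1.94-fold, just under the 2-fold limit. Cthrc1, a secreted protein of activated fibroblasts, went from 371 to 1213 CPM, Tnn, the tenascin of periosteum, from 84.1 to 304 CPM, and Lrrc15, a membrane protein of matrix-producing fibroblasts, from 19.9 to 98.8 CPM. Tnc, another tenascin of injury, lay at 267 and 533 CPM, also just under 2-fold. Elastic fiber genes split. Fbn2, the fibrillin of developing tissue, was at 20.1 and 133 CPM and Mfap4 at 70.4 and 314 CPM, whereas the adult fibrillin gene Fbn1 stood at 1473 and 729.5 CPM. The tenascin Tnxb of loose connective tissue was at 383 and 115 CPM, the calcium-binding Smoc2 at 718 and 265 CPM and Ccn5 at 112 and 26.7 CPM, all at least 2-fold lower. With each cell given equal weight the log2 ratios were larger for Postn (1.71 against 0.95), Tnc (1.98 against 1.00), Tnn (3.03 against 1.85), Lrrc15 (3.37 against 2.31), Cthrc1 (2.55 against 1.71) and Fbn2 (3.67 against 2.73). For Fbn1 the value was smaller (-0.77 against -1.01), which was then not called.

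Among collagens outside cartilage and outside the selection, 7 of 19 were higher and 2 lower. For the counts in this paragraph, the shares over all genes were 9.89% higher and 7.00% lower. Col12a1, which sits on collagen fibrils of tendon and periosteum, stood at 240.4 and 895 CPM and Col16a1 at 96.1 and 301 CPM. The pair that was lower was of basement membrane collagens, Col4a1 from 627 to 239 CPM and Col4a2 from 263 to 125 CPM. Col5a1 and Col5a2, the minor fibrillar chains, were at 816 and 1191 CPM and at 1273 and 1604 CPM and not called. Of the small leucine-rich proteoglycans, 5 of 13 were higher and 2 lower, among them Omd, found in bone, at 9.97 and 47.8 CPM and Podn at 157 and 40.0 CPM. The most abundant one, Bgn, stood at 2382 and 2437 CPM. Outside the lists, the calcification inhibitor Mgp was at 1029 and 2378 CPM, with 6018 CPM in cartilage cells and 1136 CPM in the others, and its log2 ratio of 1.21 was 0.14 without cartilage cells.

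Enzymes that build and cut the matrix were mostly not called. Of collagen processing genes, 3 of 25 were higher and none lower, a share close to that over all genes. The crosslinker Lox stood at 864 and 518 CPM and the collagen chaperone Serpinh1 at 1806 and 2495 CPM. P3h2 (from 3.64 to 15 CPM), a prolyl hydroxylase that was called, had 48.2 CPM in cartilage cells and 3.66 in the others. For chondroitin sulfate synthesis, 3 of 22 were higher and 2 lower, near the 9.89% higher and 7.00% lower over all genes. The higher ones were Xylt1 (from 14.9 to 49.4 CPM), which starts the chains, the sulfotransferase gene Chst11 (from 10.4 to 32.3 CPM) and the sulfate transporter gene Slc26a2 (from 22.7 to 70.5 CPM). Their levels in cartilage cells were 127, 85.9 and 172 CPM, and 23, 14 and 36 CPM in the others. Among proteases and their inhibitors 5 of 25 were higher and 4 lower, against the same 9.89% and 7.00%. The stromelysin gene Mmp3 was lower, at 83.4 and 29.1 CPM, and Ctsk, a collagen-cutting cathepsin, higher, at 126 and 256 CPM. The aggrecanases Adamts4 and Adamts5 were both lower, from 145 to 29.7 CPM and from 535 to 109.9 CPM.

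Contractile genes were higher at 7 dpi, 9 of 12 and none lower, with a summed level of 966 CPM at 3 dpi and 3360.4 CPM at 7 dpi. These genes mark myofibroblasts and also smooth muscle. Acta2, smooth muscle actin, stood at 225 and 1008 CPM, 4.49-fold higher (95% interval 4.41 to 4.56), Tagln at 104 and 543 CPM and Tpm1 at 194 and 638 CPM. Actg2, the enteric smooth muscle actin, reached 118 CPM from 4.67 CPM. Levels were higher outside the cartilage cells, with 1175 against 517 CPM for Acta2. Pericyte and smooth muscle markers, 9 of 9 higher, were higher beside them, and their summed level was 77.2 CPM at 3 dpi and 535 CPM at 7 dpi. Among these, Rgs5, a pericyte regulator of G-protein signaling, stood at 1.48 and 175 CPM, but the 7 dpi immune reference cells also held 124 CPM. Without the cells that had over 1% of their UMIs from markers of other cell types, the log2 ratio of the summed contractile genes was 1.77, against 1.80 with them, and it was 2.49 with each cell given equal weight. That filter moved the summed pericyte and smooth muscle markers, with a log2 ratio of 2.79 before it, by at most 1.5-fold. It therefore did not take their transcripts out, and the part of such cells in the contractile genes was not tested.

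Imprinted growth genes, which are active in the embryo and are silenced in many tissues after birth, were higher in 8 of 14 cases with none lower. H19, a noncoding RNA next to Igf2, stood at 71.3 and 777 CPM, 10.9-fold higher (95% interval 10.6 to 11.2). Mest, a hydrolase gene of embryonic mesoderm, went from 37 to 616 CPM, and the zinc finger gene Peg3 from 59.6 to 379 CPM. Igf2 itself was at 3.38 and 47.5 CPM and Dlk1, a Delta-like protein of progenitors, at 4.07 and 35.3 CPM. H19 and Mest were found at like levels in cartilage cells (979 and 674 CPM) and the others (708 and 596 CPM), whereas Peg3 and Plagl1 stood higher in cartilage cells (898 and 328 CPM) than in the others (201 and 97.3 CPM). The noncoding RNA Meg3, at 963 and 1322 CPM, and Ndn, at 184 and 93.9 CPM, were not called.

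Cell cycle genes gave no single direction. Mitosis genes were called in neither direction in 26 of 26 cases, and DNA replication genes were lower in 2 of 24 and higher in none. Over all genes 9.89% were higher and 7.00% lower, so 2 of 24 lower is near that share. Mki67, a marker of cycling cells, was at 100.4 and 85.7 CPM. The direction of the mitosis list turned with the weighting, with a log2 ratio of summed CPM of -0.26 by UMIs, 0.42 with equal weight for each cell and 0.45 with each cell thinned to 1000 UMIs. Cell cycle inhibitors and p53 targets were higher in 6 of 16 cases. The Cdk4 and Cdk6 inhibitor genes Cdkn2a and Cdkn2b, known from senescent cells, stood at 2.03 and 35.4 CPM and at 3.06 and 45.7 CPM, with the first 17.5-fold higher (95% interval 14.7 to 20.9). The imprinted inhibitor gene Cdkn1c was at 77.1 and 301 CPM, with 594 CPM in cartilage cells.

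Ligands of the BMP family were lower at 7 dpi. Of 9 with enough UMIs, 6 were at least 2-fold lower and 1, Bmp8a, was higher. The summed level of all 11 listed ligands was 175 CPM at 3 dpi and 63.4 CPM at 7 dpi. Bmp4 stood at 54.7 and 16.2 CPM, 3.37-fold lower (95% interval 3.19 to 3.57). Transcripts of the gene itself and of the transgene cannot be told apart in this level. The log2 ratio of the sum was -1.47, and -2.10 with each cell given equal weight. Bmp2 was at 37.4 and 9.1 CPM and Gdf10 at 48.2 and 18 CPM. Bmp8a was low throughout (0.656 and 1.52 CPM) and its direction turned without cartilage cells (log2 ratio -1.12). Receptors varied less, with 2 of 8 lower, and the type I receptors Acvr1 and Bmpr1a stood at 34.7 and 37.9 CPM and at 58.2 and 55.1 CPM. Direct response genes were mostly within 2-fold. Id1 was at 27.9 and 42.6 CPM, Id3 at 549.5 and 521 CPM, and Msx1 (from 30.1 to 10.9 CPM) was the lone member of 10 that was called. Of the 14 antagonist genes, 4 were higher and 1 was lower, the latter near the 7.00% lower over all genes, where 9.89% were higher. The summed level of all 15 listed antagonists went the other way, from 3361 to 2161 CPM. The BMP-binding protein gene Bmper went from 126 to 30.6 CPM and the pseudoreceptor gene Bambi from 9.64 to 47.4 CPM.

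Hedgehog targets were higher along with Ihh. Ptch1, the hedgehog receptor and a direct target, stood at 7.99 and 91.4 CPM, 11.4-fold higher (95% interval 10.5 to 12.5), with 111 CPM in cartilage cells and 84.6 CPM in the others. The ligand Ihh itself was low at 7 dpi, at 22.9 CPM summed over the mesenchymal cells. The transcription factor Gli1, also a target, was at 2.0 and 16 CPM and the decoy receptor Hhip at 1.24 and 6.44 CPM. The coreceptor Gas1 was lower, at 389 and 156 CPM, and Smo, the signal transducer, was at 37.8 and 57.2 CPM. In all 6 of 13 genes of the pathway were higher and 1 was lower, against 9.89% and 7.00% over all genes.

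Wnt genes were higher in 11 of 19 cases and lower in none, most of them at low levels. The ligand Wnt2 was at 12.9 and 30.3 CPM, Wnt16 at 1.49 and 11 CPM and the Wnt amplifier Rspo3 at 11.3 and 27 CPM. Axin2, the common target of the canonical pathway, was at 4.41 and 4.6 CPM. Of the inhibitors, Frzb was mainly a transcript of cartilage cells (242 CPM, 0.566 and 74 CPM overall), Dkk3 went from 8.44 to 77.6 CPM and Dkk2 from 66.9 to 28.6 CPM.

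Growth factor receptors and ligands of the FGF and PDGF families divided. The receptor genes Fgfr2 and Fgfr3 and the decoy Fgfrl1 were higher, the last from 9.75 to 60.8 CPM, and Fgfr2 was at 3.31 and 35.7 CPM. The ligands Fgf2 and Fgf18 were lower, from 39.4 to 7.67 CPM and from 27.9 to 12.5 CPM, together with the feedback inhibitor gene Spry1 (from 50.8 to 24.5 CPM). Pdgfra, the receptor that marks muscle mesenchymal progenitors, was at 305 and 85.6 CPM, 3.56-fold lower (95% interval 3.47 to 3.65), while Pdgfrb was at 84.2 and 80.6 CPM and the ligand Pdgfa at 26 and 77.2 CPM. The heparin-binding growth factor genes Ptn and Mdk, for pleiotrophin and midkine, stood out among secreted signals, with 75.4 and 897 CPM for Ptn (11.9-fold) and 14.8 and 326 CPM for Mdk (22-fold). Of TGF-beta and activin genes 1 of 18 was higher and 3 were lower, against 9.89% higher and 7.00% lower over all genes. Their median log2 ratio was -0.53. Tgfb1 was the higher one, at 25.8 and 59 CPM with 184 CPM in the 7 dpi immune reference cells, and the coreceptor gene Tgfbr3 was among the lower ones, at 148 and 45 CPM.

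Further signals to vessels, nerves and neighboring cells were called in both directions. For the counts in this paragraph, the shares over all genes were 9.89% higher and 7.00% lower. Of 24 angiogenic and axon guidance ligand genes 7 were higher, Ptn and Mdk included, and 7 lower. The neurotrophin gene Bdnf was at 2.4 and 10.2 CPM and the guidance gene Slit2 at 2.27 and 11.2 CPM, while its relative Slit3 was at 97.2 and 37.6 CPM and the netrin gene Ntn1 at 48.9 and 13.4 CPM. Angptl4, an inhibitor of lipoprotein lipase, was at 248 and 121 CPM. Of 11 Notch genes 3 were higher, with the receptor gene Notch3 at 5.14 and 16.8 CPM, and of 14 genes of the IGF axis 4, with the binding protein gene Igfbp2 at 0.641 and 10.7 CPM. Of 15 retinoic acid genes 2 were higher and 4 lower, with the retinol carrier gene Rbp4 at 44.3 and 122 CPM and the synthesis gene Aldh1a1 at 42.3 and 8.99 CPM. Hypoxia genes were higher in 3 of 15 cases and lower in 2. The mitophagy receptor gene Bnip3 stood at 22 and 53.8 CPM and Ndrg1 at 78.5 and 36.6 CPM. Immediate early genes, which respond to handling of cells as well as to growth factors, were lower in 2 of 21 cases and higher in none.

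Genes that mark fibroblasts of uninjured muscle were lower, 16 of 20 with none higher. Their summed level was 29870.5 CPM in Uninjured mesenchymal cells, 27656 CPM at 1 dpi, 14271 CPM at 3 dpi and 4522 CPM at 7 dpi. Gsn, the actin-severing gelsolin (chromosome 2, 35256380 to 35307892, plus strand), had the largest difference downward in CPM of the genes outside the selection, with 5257 and 683 CPM, 7.7-fold lower (95% interval 7.64 to 7.76). Pi16, a marker of adventitial fibroblasts, was at 356 and 105 CPM, Ly6a, which encodes the progenitor antigen Sca-1, at 1755 and 605 CPM, the sialomucin gene Cd34 at 440.5 and 119 CPM and Clec3b, for tetranectin, at 699 and 209.8 CPM. Of 12 genes that the study names for mesenchymal stem or lineage cells, 5 were lower and 1, Gli1, was higher. The study cites Gli1 as such a marker from earlier work. From its own analysis of transcription factor activity, it also proposes that Gli1 could be tied to osteogenic differentiation. It used part of the 12 to name cells of these libraries, so the direction of that part is no independent evidence. Without cartilage cells Gsn was still 6.7-fold and Pi16 2.91-fold lower.

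Prg4 and part of the hyaluronan genes were lower as well. Prg4 (chromosome 1, 150449412 to 150466165, minus strand) was 24.3-fold lower (95% interval 23.7 to 25) at 7 dpi, and 21-fold lower without cartilage cells. Has1, a hyaluronan synthase, stood at 508 and 132 CPM, and the hyaluronan receptor gene Cd44 at 438 and 208 CPM. In this list 4 of 11 were lower. Cemip, which degrades hyaluronan, was the member that was higher, at 3.65 and 11.7 CPM.

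Other large ratios downward came from genes of varied function. Sult1e1, an estrogen sulfotransferase, had 907 UMIs at 3 dpi and 12 at 7 dpi and was 120.2-fold lower (95% interval 68.5 to 233). Inmt, a methyltransferase of fibroblasts, was at 97.5 and 1.82 CPM, and Myoc, which encodes the secreted myocilin, at 610.2 and 33.6 CPM. The complement gene C7 was at 24.4 and 1.11 CPM, the aminopeptidase gene Lvrn at 31.1 and 1.76 CPM, the kinase ligand gene Alkal2 at 13.3 and 0.75 CPM and the glutathione transferase gene Gsta3 at 4.62 and 0.169 CPM. Aldh1a2, which makes retinoic acid, went from 242 to 17.9 CPM, and Adm, a vasodilator peptide induced by low oxygen, from 135 to 18.2 CPM.

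Inflammatory signals of the mesenchymal cells were lower at 7 dpi. Of 21 chemokine genes 12 were lower and 3 higher. Cxcl5, a neutrophil attractant, stood at 289.7 and 16.7 CPM, 17.4-fold lower (95% interval 16.5 to 18.2), and Cxcl13, which draws B cells, at 219 and 7.75 CPM, 28.2-fold lower (95% interval 26.3 to 30.3). The monocyte attractants Ccl2 and Ccl7 went from 1127 to 293 CPM and from 865 to 220.4 CPM. Cxcl14, the most abundant chemokine gene of these cells at 3 dpi, was at 1759.9 and 336 CPM, and Cxcl1, the most abundant at 7 dpi, at 902 and 440.2 CPM. The level of Cxcl12, which holds leukocytes and progenitors in place, was 319.7 and 146 CPM. The members that were higher, Ccl3, Ccl5 and Ccl12, are leukocyte products, and the 7 dpi reference cells held 513, 3292 and 12.9 CPM of them where mesenchymal cells held 9.26, 47.3 and 0.806 CPM. Cytokine and acute phase genes were lower in 14 of 26 cases and higher in none. Il6 stood at 197 and 43.8 CPM, the alarmin Il33 at 179 and 37.6 CPM, the macrophage growth factor Csf1 at 276 and 59.5 CPM and the pattern receptor gene Ptx3 at 526 and 170.1 CPM. With each cell given equal weight Cd44, Cxcl1 and Cxcl2 were no longer called (log2 ratios of -0.38, -0.84 and -0.13).

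Complement genes were mostly lower too, 8 of 13 lower and 2 higher. C3, the central component, was at 912 and 131 CPM, the C1 inhibitor gene Serping1 at 1097 and 274 CPM and Cfb, of the alternative pathway, at 233 and 69.7 CPM. Cd59a, which protects cells from complement, was one of those that were higher, at 4.99 and 36.5 CPM. Summed markers of immune cells were 258 CPM at 3 dpi and 508 CPM at 7 dpi (12 of 23 higher, none lower), and those of granulocytes 222 and 101 CPM (7 of 10 lower, none higher). Their part in these results was not tested.

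Interferon-stimulated genes were lower in 16 of 28 cases and higher in none, with a median log2 ratio of -1.13. Iigp1, a GTPase against intracellular pathogens, was at 104 and 19.3 CPM, Irf7, which amplifies the response, at 55.4 and 20.3 CPM, and Ifit1, which binds foreign RNA, at 57.5 and 17.7 CPM. Isg15, the ubiquitin-like product of the response, was at 115 and 59.9 CPM and just under 2-fold. The membrane protein gene Ifitm3 had the highest level, 2110.2 and 1049 CPM, and was not called with each cell given equal weight (log2 ratio -0.97). Such genes are classically switched on through the interferon-stimulated response element. The core of this element, GAAANNGAAA or its reverse complement, was searched on both strands of RefSeq promoter windows of GRCm38.p6, from 250 bases before to 50 bases after a gene start. It was found in 1079 of 27025 genes (3.99%) and in 13 of the 24 listed genes with a searched window. Among the listed genes called lower, 13 had such a window and 8 of these held the core. The remaining matches of the list were in genes that were not called lower. Whether the core goes with the lower calls was not tested. Windows of 30 bases are shown for 7 genes of the list that were called lower and hold the core upstream of the start, with the core in capitals, to show the letters that these promoters share. A match describes letters and is not a measured binding site.
Ifit1 (chr19:34640794-34640823, plus strand): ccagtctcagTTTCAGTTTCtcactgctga
Stat2 (chr10:128270266-128270295, plus strand): cgcaccctggTTTCAGTTTCctttccctag
Gbp7 (chr3:142530273-142530302, plus strand): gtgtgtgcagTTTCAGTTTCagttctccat
Gbp2 (chr3:142620594-142620623, plus strand): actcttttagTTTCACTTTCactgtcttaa
Gbp3 (chr3:142559995-142560024, plus strand): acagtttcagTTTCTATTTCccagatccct
Igtp (chr11:58199512-58199541, plus strand): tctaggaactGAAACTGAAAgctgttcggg
Rsad2 (chr12:26456553-26456582, minus strand): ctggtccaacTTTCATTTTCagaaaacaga
Their levels went from 57.5 to 17.7 CPM for Ifit1, 43.1 to 16.9 CPM for Stat2, 27 to 10.5 CPM for Gbp2, 17.9 to 7.75 CPM for Gbp3, 30.8 to 13.1 CPM for Gbp7, 17.3 to 6.98 CPM for Igtp and 13.2 to 3.09 CPM for Rsad2. Each was at least 2-fold lower at 7 dpi when weighted by UMIs.

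**Figure D3:**
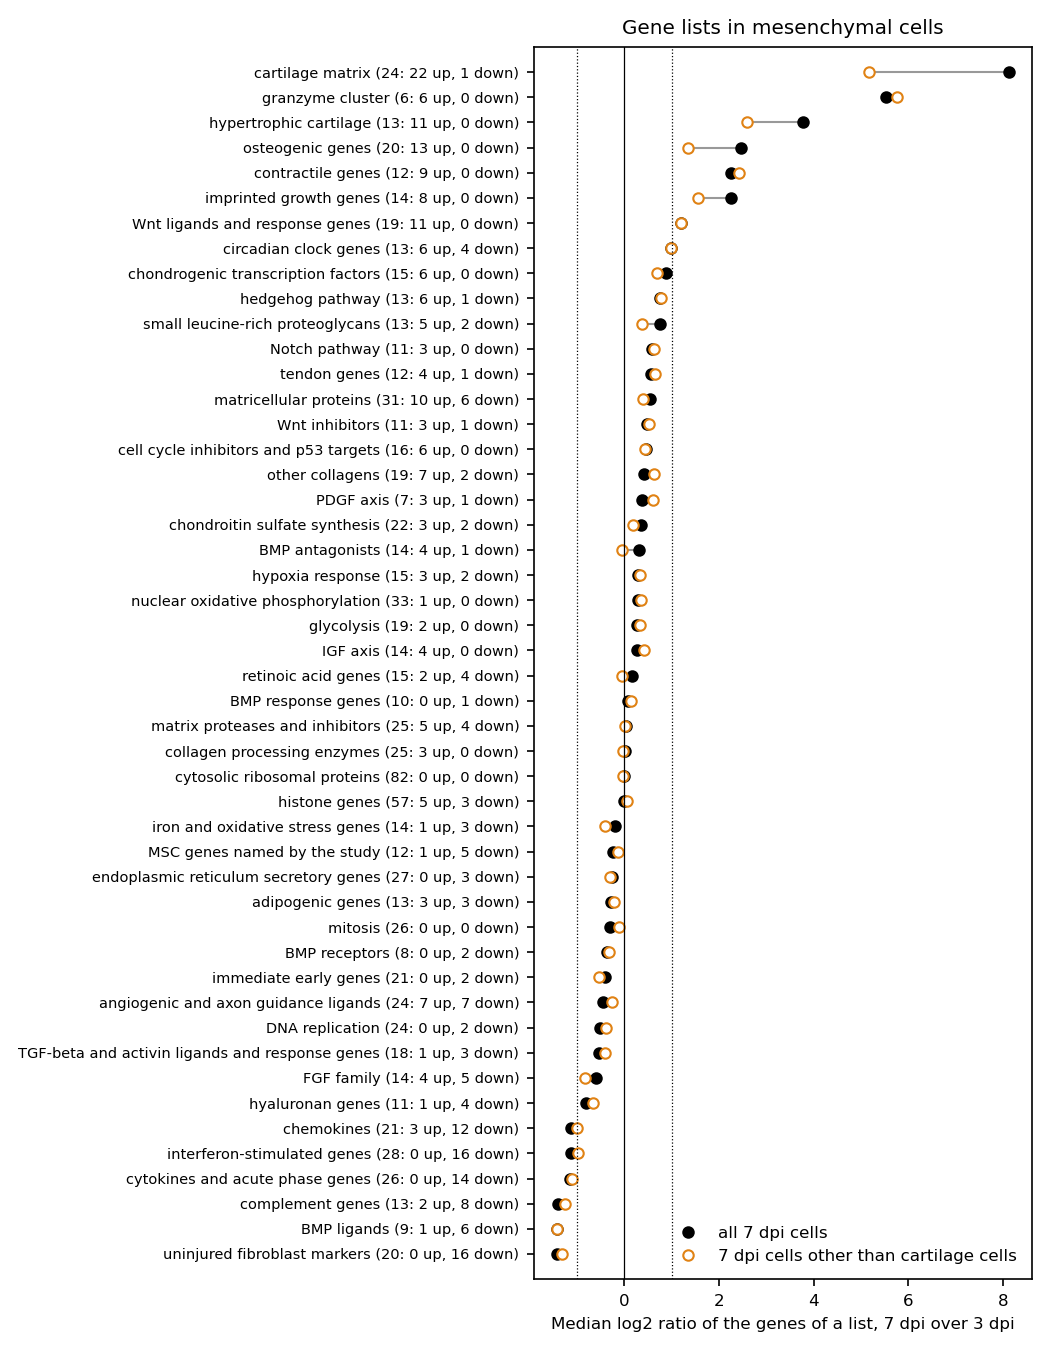
Median log2 ratio of 7 dpi over 3 dpi (horizontal) for each gene list (vertical), over all mesenchymal cells (filled) and without the 7 dpi cartilage cells (open), with dotted lines at 2-fold and labels that give the number of genes with enough UMIs and how many were at least 2-fold higher (up) or lower (down). Cartilage matrix and granzyme genes lie at the top, and fibroblast markers, BMP ligands and complement genes at the bottom.

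Lists of oxidative phosphorylation, glycolysis, ribosomal protein and endoplasmic reticulum genes were called about as often as all genes or less. Oxidative phosphorylation genes were called in 1 of 33 cases and glycolysis genes in 2 of 19, the lactate exporter gene Slc16a3 among these, at 33.1 and 73.6 CPM. None of 82 ribosomal protein genes was called. The chaperone gene Hspa5, which senses load in the endoplasmic reticulum, stood at 1604 and 754 CPM, a difference below 2-fold with each cell given equal weight (log2 ratio -0.93). In all 3 of 27 genes of that compartment were lower. Of 14 iron and oxidative stress genes 3 were lower and 1 was higher, against 7.00% and 9.89% over all genes, with a median log2 ratio of -0.20. The lower ones were the metallothionein genes Mt1 and Mt2 at 1847 and 617 CPM and at 1351 and 235 CPM and the ferritin gene Fth1 at 4686 and 2205 CPM. Slc40a1, the iron exporter ferroportin, was the higher one, at 1.55 and 43.3 CPM, with 4.48 CPM in the 7 dpi immune reference cells. Of the fat cell genes, Fabp4 and Fabp5 went from 21.6 to 65.5 CPM and from 121 to 330.1 CPM, and Lpl and Cebpd from 345 to 120.4 CPM and from 893 to 328 CPM. The 7 dpi reference cells held 133 CPM of Fabp4 and 115 CPM of Fabp5. Outside the selection the largest difference upward in CPM was that of Malat1, a nuclear noncoding RNA, at 11679 and 20992 CPM, followed by Gm42418, a locus that overlaps ribosomal RNA sequence, at 23198 and 29344 CPM. Totals without both genes and the mitochondrial genes gave 1437 higher and 922 lower calls.

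Of the 13 clock genes, 6 were higher and 4 lower. Dbp and Nr1d1, output and repressor genes of the clock, were at 3.15 and 34.9 CPM and at 7.05 and 52.7 CPM, and Arntl, the activator, at 34.5 and 12.3 CPM. The hour at which each muscle was taken was not used here, and its part was not tested.

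A cluster of granzyme genes was higher in mesenchymal cells. Gzmd and Gzme, which encode secreted serine proteases known from activated lymphocytes and from the placenta and uterus, stood at 0.522 and 45.7 CPM and at 0.924 and 49.5 CPM. All 6 genes of the cluster with enough UMIs were higher, and the summed level of all 8 listed genes was 3.12 CPM at 3 dpi and 125 CPM at 7 dpi. The immune reference cells held 0.746 CPM of Gzmd and 1.99 CPM of Gzme at 7 dpi, while Gzmb, the granzyme of cytotoxic cells, was at 142 CPM there and 2.36 CPM in mesenchymal cells. Cells of this library with at least 2 UMIs of Ptprc and no limit on the selection genes held 18.6 CPM of Gzmd and 25.7 CPM of Gzme. The margin for these 2 genes thus depends on that limit. Gzmd, Gzme and Gzmg are close copies of each other, so the division of UMIs among them is uncertain. Megf6, which encodes a protein of many EGF-like repeats, went from 0.417 to 41.8 CPM and was another gene with a large ratio at a low level.

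Markers of other cells remained in the selection at low level. Cells with over 1% of their UMIs from such markers numbered 160 at 3 dpi (2.30%) and 911 at 7 dpi (5.06%). Endothelial markers were at 11.1 and 26.9 CPM (7 of 9 higher), muscle lineage markers at 75.6 and 116 CPM (8 of 14 higher, 1 lower), Schwann cell markers at 41.1 and 98.8 CPM (5 of 9 higher) and red cell markers at 30.3 and 114 CPM (4 of 4 higher). Several genes that were close to absent at 7 dpi were of this kind. The granule protease gene Elane had 764 UMIs at 3 dpi and 2 at 7 dpi, the eosinophil gene Prg2 720 and 9, and the keratinocyte gene Krt5 425 and 2. Keratinocyte markers were lower in 5 of 6 cases, and Ctsg, Ms4a3 and Epx are likewise granulocyte genes. Without the cells over the 1% limit, 1371 genes were called higher and 984 lower, against 1383 and 978 with them. The part of marker transcripts in the remaining cells was not tested.

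Shares of cells with a UMI were read at equal depth, with each cell thinned to 1000 UMIs, which left out 411 cells at 3 dpi and 1415 at 7 dpi. Postn was found in 36.3% of 3 dpi cells (95% Clopper-Pearson interval 35.2 to 37.5) and 85.9% of 7 dpi cells (85.3 to 86.4). The immune reference cells gave 3.79 and 14.6%, at median depths of 4108 and 2538 UMIs before thinning, and without thinning the mesenchymal shares were 55.3 and 95.5%. Acan was in 0.0765% and 36.2% of mesenchymal cells, with 2.79% of reference cells at 7 dpi (0.49 and 55.9% of mesenchymal cells unthinned). Acta2 was in 7.28% and 41.9%, with 1.54 and 5.67% of reference cells (21.9 and 64.5% unthinned). So more of the cells held these transcripts at 7 dpi, beyond the level of these reference cells. The reference was chosen for few UMIs of the selection genes, and shares in Ptprc-positive cells without that limit were not compared. In the other direction Prg4 was in 35.9% and 3.81% of mesenchymal cells, with 2.78 and 0.262% of reference cells (59.6 and 11.4% unthinned). Pi16 was in 21.7 and 8.39%, with 3.08 and 1.31% of reference cells (39.4 and 19.7% unthinned). Scx was in 0.536 and 5.52%, with 0.148 and 0.436% of reference cells (2.39 and 17% unthinned). A UMI of Mki67 or Top2a was in 7.68 and 10.8% (20.5 and 24.2% unthinned), with 13.1 and 8.9% of reference cells, which cycle themselves. The CPM of both genes was lower at 7 dpi while the share was higher, so no order is read from them.

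**Figure D4:**
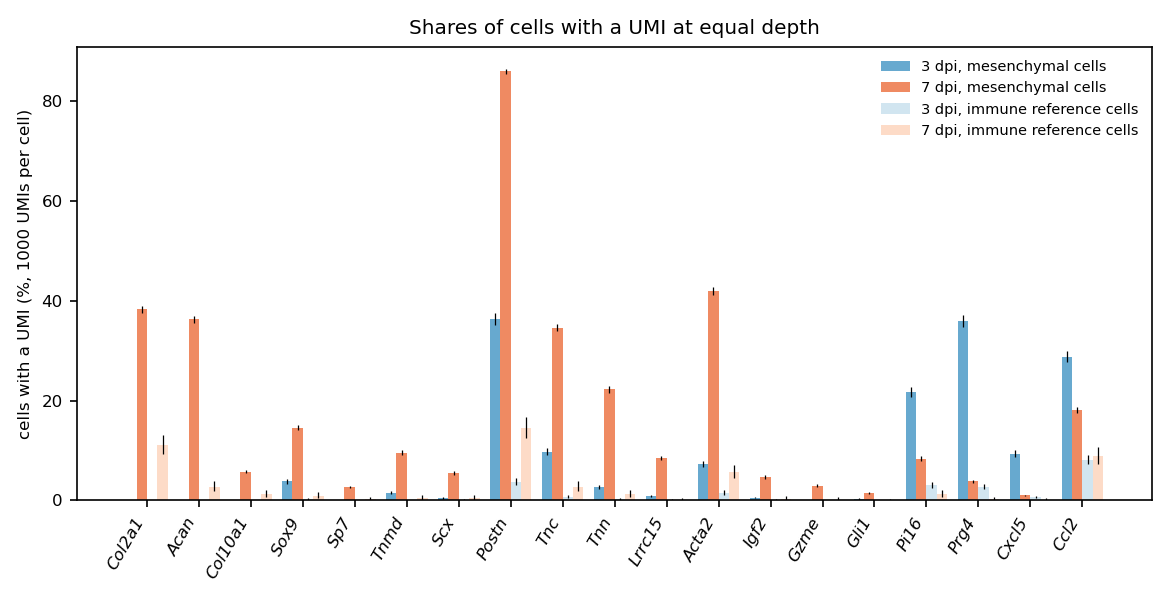
Share of cells with at least 1 UMI of a gene (vertical, percent) after each cell was thinned to 1000 UMIs, for mesenchymal cells (dark) and immune reference cells (pale) at 3 dpi (blue) and 7 dpi (orange), with exact 95% intervals over cells as lines. Matrix, contractile and cartilage genes are found in more cells at 7 dpi, and Pi16, Prg4, Cxcl5 and Ccl2 in fewer.

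The Uninjured and 1 dpi libraries frame the comparison, with mesenchymal cells chosen by the same rule (9346 and 3903 cells). They are further single libraries and stand beside the others without a test. Col2a1 was at 0.925 and 0.838 CPM there, Scx at 7.16 and 1.68 CPM, Ptch1 at 8.47 and 11.5 CPM and H19 at 46.3 and 11.1 CPM, so for these genes the 7 dpi library stood above the other 3. Postn, at 408 and 135 CPM, and Acta2, at 74.9 and 17.1 CPM, were already higher at 3 dpi than in both. Bmp4 was at 111 and 97.9 CPM and Gsn at 15034 and 13840.0 CPM, with each later library lower than the one before. Prg4, at 341 and 1059.7 CPM, and Cxcl5, at 22.4 and 235 CPM, had their highest level at 3 dpi, and Iigp1, at 38.9 and 242 CPM, at 1 dpi.

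**Figure D5:**
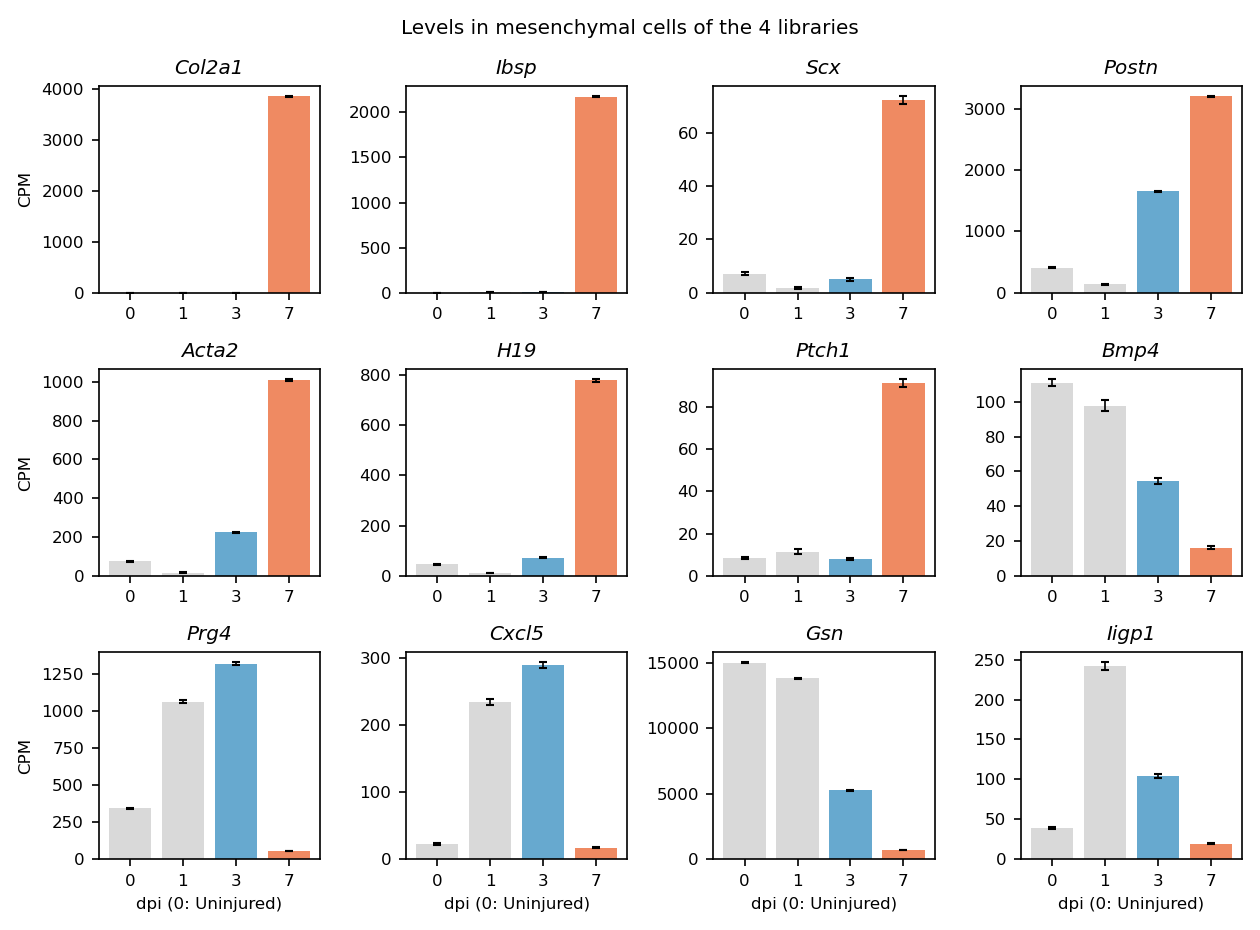
Level (CPM, vertical) of 12 genes in mesenchymal cells of the 4 libraries, by dpi (horizontal, 0 for Uninjured), as bars from 0 with exact Poisson 95% intervals as lines. Col2a1, Ibsp, Scx, H19 and Ptch1 are high at 7 dpi, Bmp4 and Gsn decline from Uninjured to 7 dpi, and Prg4 and Cxcl5 are highest at 3 dpi.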

How the data were processed

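Single-cell RNA libraries (10x Genomics) of 4 pools of 3 muscles each were used as the authors deposited them, as whole-number UMI counts per gene and barcode. Per the labels and the study's methods, reads were aligned with Cell Ranger 5.0.0 and STAR, and libraries were brought to a like number of reads by down-sampling. The sources used here do not give the order of down-sampling and deposit. The submitters' processing notes name Seurat 3.1.1 and mm10. The deposited barcodes were used without further cell calling, and no deposited cell annotation was used here.

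Counts of the mesenchymal cells were summed per library and divided by all their UMIs (CPM). Genes with at least 100 UMIs over both libraries were compared and called at 2-fold, with exact conditional binomial intervals of 95%. A gene with 0 UMIs on a side was set against a floor of 3 UMIs. The steps were tested on simulated Poisson counts without spread between cells, animals or libraries, so that test covers counting error only. The members and lists were chosen with earlier results of these data known. Named genes were taken from the 12 of largest ratio and the 12 of largest CPM difference in each direction, the 8 of highest CPM with under 10 UMIs in the other library, the 10 of largest ratio in each direction without cartilage cells, and from each list those of largest ratio, of highest CPM or against the list. Not all genes that met this rule are given in the text, and Galnt15, Stk32a, S100a6, Vim and Fstl1 are among those left out. Other genes named from the lists were chosen after their values were seen. Scrublet's automatic threshold marked 0 and 17 cells at 3 and 7 dpi, so its calls were not used, and doublets were kept except in 1 alternative without the 7.5% of highest score. Of 32285 gene identifiers, 32158 matched the GENCODE M21 annotation of GRCm38, from which coordinates were taken. Alternatives changed the scaling, weighting, depth, filters on cells and genes and the cartilage limit. The immune reference cells, the minimum of 2000 UMIs per cell and totals without Malat1, Gm42418 and mitochondrial genes were chosen after seeing the data. Python 3.11.15 with numpy 2.4.6, scipy 1.17.1, pandas 2.3.3 and scanpy 1.11.5 was used.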

Additional observations from a re-analysis of the deposited data

How the results depend on the processing

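No paired analysis was possible because each time point had 1 pooled library, and for the same reason no replicate could be left out. The number of genes at least 2-fold higher was 759 with each cell thinned to 1000 UMIs, which tested 10733 genes, 2946 with at least 1 UMI and 498 with at least 1000 UMIs over both libraries, against 1383. The number lower was 2133 with at least 1 UMI and 602 with at least 1000 UMIs, against 978. Without cartilage cells the numbers higher were 587, 2751 and 394 in the same order, against 1147, and those lower 1963 and 500 for the UMI limits, against 853. These settings test more or fewer genes. The other settings kept these counts within 1.5 times, and the share of calls that were higher ranged from 45.27% (at least 1000 UMIs) to 66.06% (log2 ratios centred on their median, a shift of 0.10) over all mesenchymal cells. Without cartilage cells it ranged from 41.87% (thinned) to 63.46% (centred).

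Among the genes of the lists or the naming rule that were called, the log2 ratio changed sign for Bmp8a (-0.38 with equal weight per cell, -0.27 thinned and -1.12 without cartilage cells), Chad (-0.71), Cytl1 (-0.15) and Smpd3 (-0.63) without cartilage cells, Rspo2 (-0.30) thinned, and Myod1 (0.24) and Plin1 (0.14) where the 4 selection genes made up at least 2% of a cell. Genes under 2-fold changed sign more often and are not listed. For gene lists the log2 ratio of the sum moved by over 1.5-fold for cartilage matrix (2.97, without cartilage cells 0.07), hypertrophic cartilage (4.31, without cartilage cells 2.91), BMP ligands (-1.47, equal weight -2.10, thinned -2.15), contractile genes (1.80, equal weight 2.49, thinned 2.48), mitosis (-0.26, equal weight 0.42, thinned 0.45), the granzyme cluster (5.33, equal weight 4.70, selection genes at least 2% 6.27), erythroid markers (1.92, equal weight 3.97, thinned 4.05, selection genes at least 2% 4.86), osteoclast markers (0.99, equal weight 1.91, thinned 1.62), granulocyte and Schwann cell markers (-1.13 and 1.26, with 2 SD limits and Scrublet -0.39 and 2.20), pericyte and smooth muscle markers (2.79, selection genes at least 2% 2.20) and keratinocyte markers (-1.01, selection genes at least 2% -0.38, without cells rich in other-cell markers -0.25). The cause was not tested. Time and library cannot be told apart under any setting, and intervals cover counting error only.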

Other observations

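Histone and immune-related lists outside the comparisons above gave mixed values. Of 57 histone genes with enough UMIs, 5 were at least 2-fold higher and 3 lower at 7 dpi, close to the share over all genes. The replication-dependent histone gene Hist1h2ap stood at 242 CPM at 3 dpi and 83.8 CPM at 7 dpi. Of the osteoclast markers 2 had enough UMIs, and Acp5, the tartrate-resistant phosphatase, was at 7.26 and 19.8 CPM in mesenchymal cells and at 145 and 224 CPM in immune reference cells of the same libraries.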
